A study of Saccharomyces cerevisiae with 2 samples.

Results

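The 10 genes described here make, consume or carry glycerol in Saccharomyces cerevisiae. They were chosen by name and matched to the array through their open reading frame names: GPD1 (YDL022W), GPD2 (YOL059W), GPP1 (YIL053W), GPP2 (YER062C), FPS1 (YLL043W), STL1 (YDR536W), GUT1 (YHL032C), GUT2 (YIL155C), DAK1 (YML070W) and GCY1 (YOR120W). All 10 were among the 6207 open reading frames on the array. A ratio on both arrays was present for 6 of them, a ratio on array 1 alone for DAK1, and no ratio on either array for FPS1, STL1 and GCY1. Of all genes on the array, 36.3% had a ratio on both arrays and 50.2% on neither.

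Glycerol is the main compatible solute of budding yeast, which accumulates it when water leaves the cell, and making it also reoxidises cytosolic NADH. Glycerol-3-phosphate dehydrogenases (Gpd1 and Gpd2) draw dihydroxyacetone phosphate from glycolysis, and glycerol-3-phosphatases (Gpp1 and Gpp2) release free glycerol. The channel Fps1 lets glycerol out, the symporter Stl1 brings it in, and the glycerol kinase Gut1 with the mitochondrial dehydrogenase Gut2 returns it to metabolism. GPD1 is a classical target of the Hog1 MAP kinase of the osmotic stress pathway, and of the general stress factors Msn2 and Msn4, which the strain is named for.

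The study exposed a yeast strain labelled msn2/4 mutant, in rich YEPD medium at 24 °C, to 5 units per ml of Zymolyase 100T, an enzyme preparation that digests cell wall glucan, for 3 hours by the sample titles; the design text could also be read as collection at 3 hours of growth. The culture had grown for 2 h 30 min before it was split, so by the second reading the exposure would be shorter than 3 hours. The comparison is with the part of the same msn2/4 mutant culture that received no enzyme, so both RNAs carry the mutation. Wild-type cells are not analysed here, and nothing below measures what Msn2 and Msn4 contribute. RNA from 1 culture was hybridised on 2 two-colour arrays with the dyes exchanged: on array 1 Cy5 marked the untreated RNA and Cy3 the RNA of the treated cells, and on array 2 the reverse.

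Each value is a log2 ratio of the 2 RNAs, without recentring. The labels do not give the numerator. Positive values are likely zymolyase over untreated, because cell wall genes reported to be induced by zymolyase are then positive, and with the other numerator every sign changes. On array 1, where Cy3 marked the treated RNA, this reading means a ratio of Cy3 over Cy5, which the labels do not state. The sign of array 2 was turned, an assumption chosen with the data in view from the genes of largest ratio, most of all cell wall genes, so that these run the same way on both arrays. GPD1 is no wall gene but is among the genes of largest ratio, so its matching signs after the turn were part of what the turn was chosen on and are no evidence for it. For the glycerol genes, and for related genes past 2-fold, the mean of the columns as deposited, without the turn, is given too. SDs are over the 2 hybridisations of 1 culture, so they cover hybridisation and dye error and not the spread between cultures. With 1 culture there was no test, and p-values are absent. Spot intensities are not in the table, so the signal behind each ratio is unknown and the number of arrays limits the precision.

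Across the 2254 genes with both ratios the arrays disagreed more often than not: signs matched in 39.8% after the turn, against 60.2% as deposited. Pearson's r over these genes was -0.19 and Spearman's rho -0.31 after the turn, and genes are not independent replicates. The median of the mean ratio over all genes was -0.37, so a gene at 0 already lies above most of the array. Positions relative to all genes are therefore given as percentiles, the share of those genes with a lower mean ratio.

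The paralogous dehydrogenase genes GPD1 and GPD2 had ratios of opposite sign on each array, the largest contrast within glycerol synthesis. GPD1, which encodes the dehydrogenase induced by osmotic stress, had 3.42 on array 1 and 2.59 on array 2 after the turn. GPD2, which encodes the paralog known for its role in redox balance without oxygen, had -0.98 on array 1 and -2.49 on array 2. As deposited, array 2 had -2.59 for GPD1 and 2.49 for GPD2, so the 2 genes opposed each other on each array with or without the turn, while the match of each gene's sign between the arrays follows from the turn.

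The mean ratio of GPD1 was 3.00 ± 0.58 (SD, n = 2 arrays), or 8.03-fold, and it ranked 8 from the highest of 2254 genes, or 8 from the lowest with the other numerator. The mean of GPD2 was -1.74 ± 1.07 (n = 2 arrays), 3.34-fold in the negative direction, at percentile 7.23. That low position came mainly from array 2, where GPD2 lay at percentile 4.52 of the genes valued there. On array 1 it lay at percentile 35.7, and relative to that array's median it was -0.60. GPD2 was close to 2-fold negative on array 1 (1.98-fold) and 5.63-fold on array 2, so its size differed between the hybridisations more than that of GPD1, which was 10.7-fold and 6.03-fold. Relative to the median of all genes the means became 3.37 for GPD1 and -1.37 for GPD2.

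Because both genes were read on the same arrays, the distance between their ratios does not depend on where the arrays are centred. The ratio of GPD1 exceeded that of GPD2 by 4.40 on array 1 and by 5.09 on array 2, a mean difference of 4.74 ± 0.48 on the log2 scale. As deposited, the same difference was -5.09 on array 2, so its size was alike on both arrays and its direction rests on the turn. The mean as deposited was 0.41 for GPD1, at percentile 63.4 of those means, and 0.75 for GPD2, and neither was 2-fold.

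**Figure D1:**
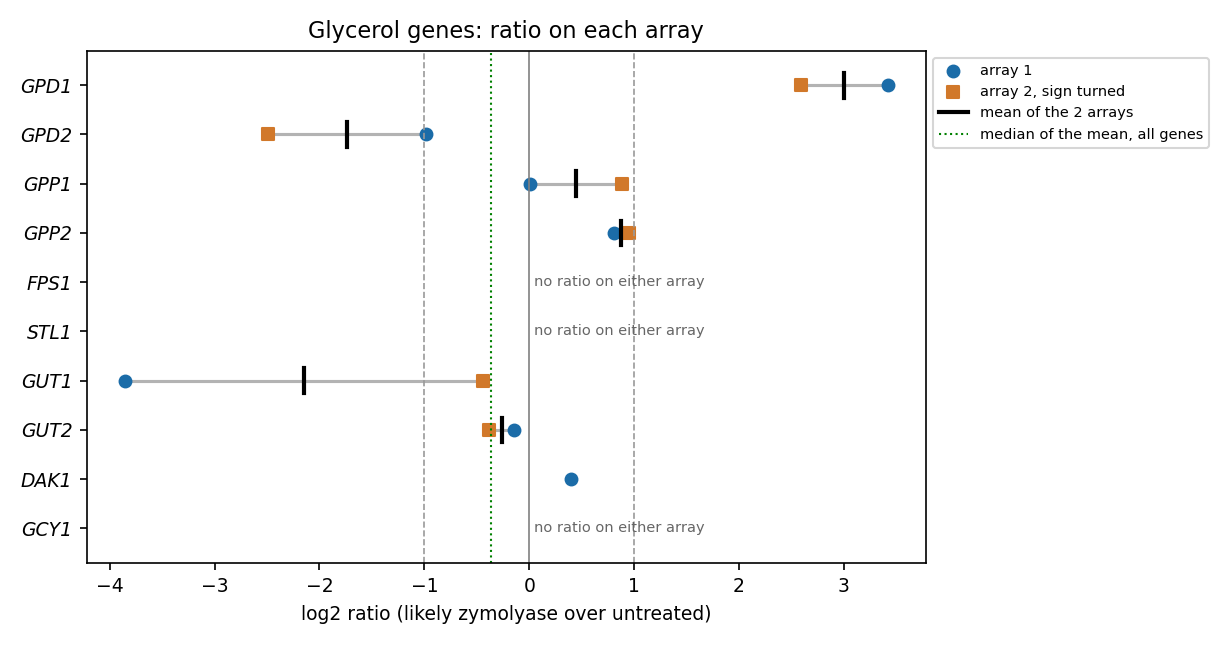
Log2 ratio (x axis, likely zymolyase over untreated) of the 10 glycerol genes (y axis) on array 1 (circles) and on array 2 with its sign turned (squares), with the mean of both (black bars). Dashed lines mark 2-fold and the dotted line the all-gene median of -0.37. GPD1 lies beyond 2-fold positive on both arrays, GPD2 and GUT1 are negative on both, and FPS1, STL1 and GCY1 have no ratio.

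The glycerol-3-phosphatase genes had positive ratios below 2-fold. GPP2, whose product is the phosphatase isoform induced by osmotic stress, had 0.81 on array 1 and 0.95 on array 2. Its mean of 0.88 ± 0.10 (n = 2 arrays, 1.84-fold) lay at percentile 96.2, and only 4.48% of the genes with both ratios had a smaller SD. Among the genes valued on each array, GPP2 lay lower, at percentile 83.2 on array 1 and 89.9 on array 2. GPP2 thus had a high mean among all genes and, without recentring, closely matching hybridisations, although its ratio itself was modest. The match was looser in 2 settings described below. GPP2 had 1.00 on array 1 and 1.67 on array 2 after centring with rescaling. After removal of the length trend it had 1.90 and 0.81.

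GPP1, the other isoform, had 0.0096 on array 1 and 0.89 on array 2, a mean of 0.45 ± 0.62 (n = 2 arrays, 1.37-fold) at percentile 91.6. Among the genes valued on each array, GPP1 lay at percentile 60.0 on array 1 and 88.6 on array 2. Its SD exceeded its mean, and array 1 placed it at 0. After removal of the length trend described below, GPP1 had 1.10 on array 1 and 0.75 on array 2. The ratio of GPP2 exceeded that of GPP1 by 0.80 on array 1 and by 0.06 on array 2, a mean difference of 0.43 ± 0.52, which is within the spread of the hybridisations. The 2 isoforms are close in sequence, and the labels do not say whether the probes tell them apart, so their ratios may share signal. Relative to the all-gene median the means were 1.25 for GPP2 and 0.82 for GPP1. As deposited, the means were -0.072 and -0.44.

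GPD1 stood apart from both phosphatase genes on each array. Its ratio was higher than that of GPP2 by 2.61 on array 1 and by 1.64 on array 2, and higher than that of GPP1 by 3.41 and 1.70. In the synthesis branch GPD1 and GPP2 were positive on both arrays, GPD2 was negative on both, and GPP1 was at 0.0096 on array 1 and positive on array 2. The 4 means ran from -1.74 to 3.00. Their median was 0.66, against -0.37 over all genes, and as deposited 0.17 against 0.07.

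In glycerol use, GUT1 had a negative mean that came mainly from 1 hybridisation, and GUT2 was near the middle of the array. GUT1, the glycerol kinase gene, had -3.85 on array 1 and -0.45 on array 2. Array 1 alone showed a 14.5-fold difference and array 2 a 1.36-fold one. The mean was -2.15 ± 2.41 (n = 2 arrays), at percentile 4.48, and 91.2% of the genes had a smaller SD.

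The SD of GUT1 was larger than its mean, so the size of its ratio is not determined by these arrays. On array 2 it lay at percentile 47.7 of all genes valued there, and relative to that array's median it was -0.047. Without array 1 its value was -0.45, below the 2-fold limit. As deposited its mean was -1.70, with opposite signs on the arrays.

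GUT2, the FAD-dependent glycerol-3-phosphate dehydrogenase of mitochondria, had -0.14 on array 1 and -0.38 on array 2, a mean of -0.26 ± 0.17 (n = 2 arrays). That was 1.20-fold in the negative direction at percentile 57.9, and relative to the all-gene median it was 0.11. The ratio of GUT2 exceeded that of GUT1 by 3.71 on array 1 and by 0.07 on array 2, a mean difference of 1.89 ± 2.58, smaller than its SD.

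DAK1, a dihydroxyacetone kinase of the alternative route that oxidises glycerol first, had 0.40 on array 1 (1.32-fold, percentile 71.1 of the genes on that array) and no ratio on array 2. A value from 1 hybridisation has no dye control. GCY1, the glycerol dehydrogenase proposed for the first step of that route, had no ratio. Neither transport gene, FPS1 for efflux or STL1 for uptake, had a ratio, so glycerol transport could not be described from the chosen genes.

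A gene was counted when its mean reached 2-fold, a log2 ratio of 1 in size, with matching signs on the arrays. By this rule 1 of the 6 glycerol genes with both ratios was positive (GPD1) and 2 were negative (GPD2 and GUT1). Over all 2254 genes, 2.88% met the rule as positive and 13.6% as negative, 16.5% in all. With 2-fold required on each array, GPD1 alone of the 6 remained. The share of all genes was then 1.69% positive and 4.61% negative, but nothing is read from that for GPD1, since its ratios were among those the turn was chosen on. The median of the 6 means was 0.094 against -0.37 over all genes, and as deposited 0.02 against 0.07.

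In all 6 genes the signs matched after the turn, 3 above 0 and 3 below, with GPP1 counted through its 0.0096 on array 1. Among all genes 39.8% did, 7.85% above 0 and 31.9% below. This count is a description only, since the turn was chosen on large ratios such as that of GPD1. After each array was centred on its own median, the signs of all 6 still matched, against 35% of all genes, but on array 2 GUT1 was then at -0.047 and GUT2 at 0.018. GPP2 passed 2-fold after centring, which gave 2 positive and 2 negative genes, with 5.41% of all genes positive and 7.14% negative.

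**Figure D2:**
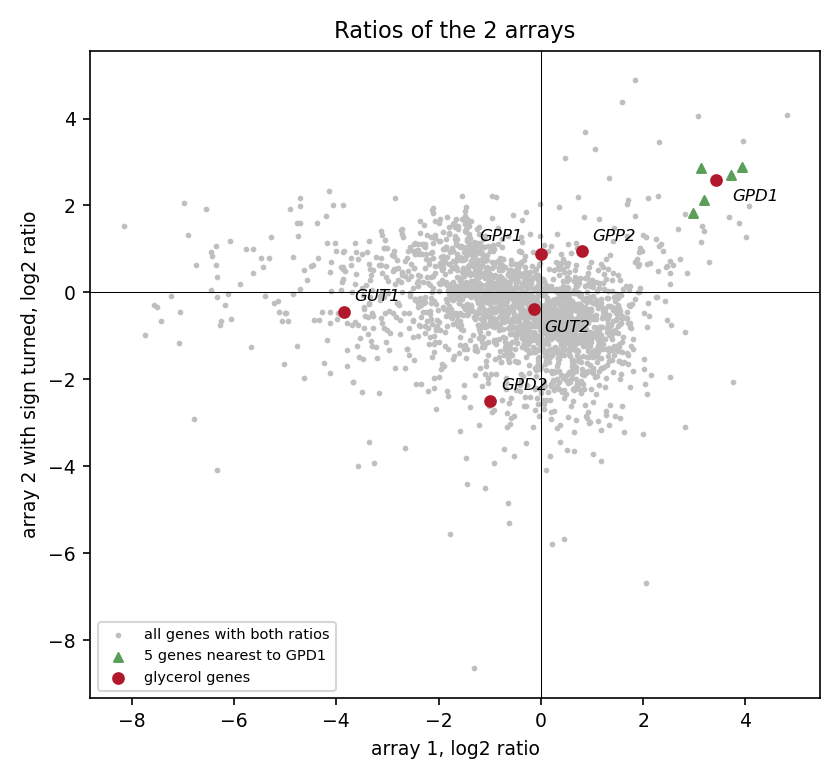
Log2 ratio on array 1 (x axis) against array 2 with its sign turned (y axis) for all 2254 genes with both ratios (grey), the 6 glycerol genes (red) and the 5 genes nearest to GPD1 (green triangles). GPD1 lies in the sparse upper right with those 5 genes, GPD2 in the lower left and GUT1 far to the left near 0 on array 2.

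The genes whose pair of ratios lay nearest to that of GPD1, by Euclidean distance over the 2 arrays, were PIR3, SED1, PRY2, CRG1 and PST1. The distances ran from 0.33 for PIR3 to 0.87 for PST1. PIR3 and SED1 encode structural proteins of the cell wall, and PST1 a cell surface protein whose transcript is known to rise with wall damage. PRY2 encodes a secreted sterol-binding protein and CRG1 a methyltransferase. PIR3 had 3.73 and 2.70 on the 2 arrays and SED1 3.13 and 2.86, and their likeness to GPD1 in sign and size is what they were picked for. The distances are the same with or without the turn, but the matching signs on the arrays follow from it. It was chosen on large ratios, most of all of wall genes. As deposited the means were 0.51 for PIR3, 0.13 for SED1, 0.52 for PRY2, 0.52 for CRG1 and 0.57 for PST1. Whether GPD1 shares a response with these genes was not tested.

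The mean of the columns as deposited, called the half-difference here, holds what the turn does not average together. Across 2174 genes it rose with gene length (Spearman's rho 0.46), whereas the mean did not (0.03). These points share 2 hybridisations and are given as a description. Among the glycerol genes, the short GPP1 and GPP2 (753 bases each) had half-differences of -0.44 and -0.072, and GPD1 (1176 bases) and GPD2 (1323 bases) had 0.41 and 0.75. GUT2 (1950 bases) had 0.12 and GUT1 (2130 bases) -1.70, against the direction of the trend. When the length trend was removed from each array, GUT1 had -3.88 on array 1 and 0.37 on array 2 and so no longer passed the rule, while the means were 3.33 for GPD1, -1.42 for GPD2, 0.92 for GPP1 and 1.35 for GPP2. The part of gene length in these ratios was not tested further.

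**Figure D3:**
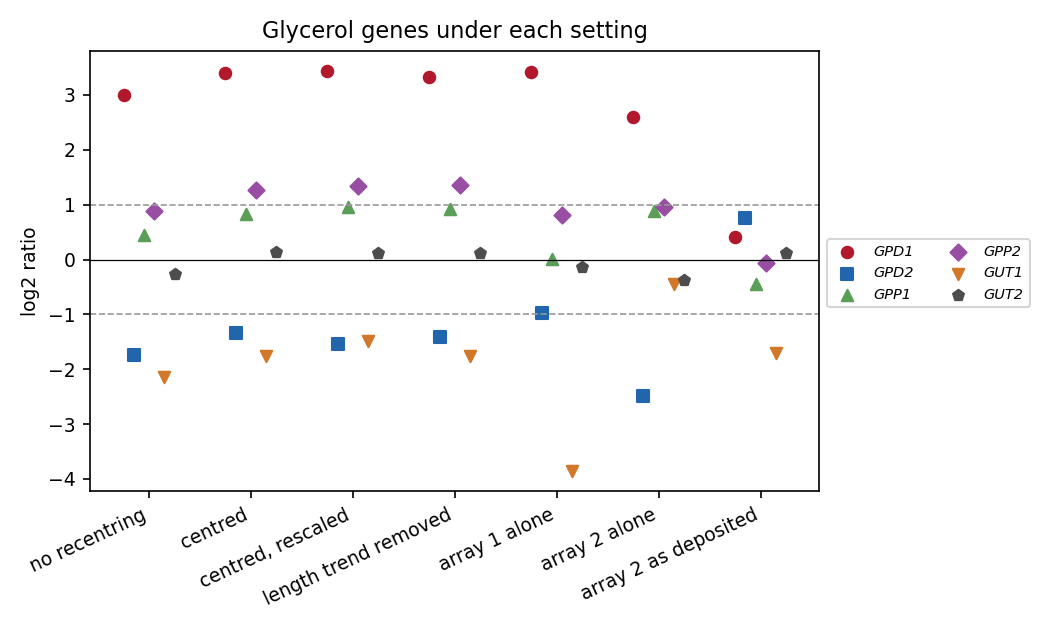
Log2 ratio (y axis) of the 6 glycerol genes with both ratios under each way of treating the arrays (x axis), with dashed lines at 2-fold. GPD1 stays between 2.59 and 3.44 in the first 6 settings and is 0.41 with array 2 as deposited, where no gene passes the 2-fold rule because all 6 then have opposite signs on the arrays.

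Of 27 other genes linked to glycerol, 13 had a ratio on both arrays, and the rule took 1 as positive and 1 as negative. Their median was -0.14, against -0.37 over all genes and 0.094 for the 6 glycerol genes. As deposited these medians were 0.03, 0.07 and 0.02. A share of 1 in 13 in each direction rests on too few genes to set against the 2.88% and 13.6% of all genes.

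Among 8 related enzymes, 6 had both ratios and NDE1 passed as positive. NDE1, a mitochondrial external NADH dehydrogenase that competes with glycerol formation for cytosolic NADH, had 2.58 on array 1 and 0.63 on array 2, a mean of 1.60 ± 1.38 (n = 2 arrays). It was positive on both arrays after the turn, but array 2 alone was below 2-fold, and its mean as deposited was 0.97. Its paralog NDE2 had -2.38 and 0.91, with opposite signs on the 2 arrays. YPR1, the paralog of GCY1, had 0.69 and 0.63, a mean of 0.66 ± 0.04 (n = 2 arrays) at percentile 94.9. Among the genes valued on each array, YPR1 lay at percentile 80.3 on array 1 and 83.4 on array 2. DAK2, the paralog of DAK1, had no ratio.

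TPI1, which interconverts the triose phosphates at the branch to glycerol, had -0.35 on array 1 and 0.18 on array 2, with opposite signs and a mean of -0.088. FBA1, the aldolase just before it, had -0.045 and -0.23, a mean of -0.14. SCT1, an acyltransferase that diverts glycerol 3-phosphate into lipid, had -1.06 and -0.77 on the 2 arrays, a mean of -0.91 ± 0.21 (n = 2 arrays). Its mean lay at percentile 22.3, and its ratios at percentile 33.9 on array 1 and 34.0 on array 2. Relative to the all-gene median its mean was -0.54.

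Of 6 genes of transport and channel control, 2 had both ratios. RGC1, which encodes a positive regulator of the Fps1 channel, had -1.03 on array 1 and -1.98 on array 2, a mean of -1.50 ± 0.67 (n = 2 arrays). Both hybridisations were past 2-fold in the negative direction, array 1 only just (2.04-fold), and its mean lay at percentile 10.1 of all genes. Relative to the median of array 1 it was -0.65 there, below 2-fold. By array, RGC1 lay at percentile 34.8 on array 1 and 8.36 on array 2. Its mean as deposited was 0.47. GUP1, a membrane O-acyltransferase first linked to glycerol uptake, had -0.78 and 0.15, with opposite signs.

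Of 13 regulators, 5 had both ratios and none passed the rule. PBS2, the MAP kinase kinase above Hog1, had 0.75 and 0.23, a mean of 0.49 ± 0.37 (n = 2 arrays), and SNF1, the kinase that relieves glucose repression, had -0.82 and -0.41, a mean of -0.61 ± 0.29. HOG1 had 1.22 on array 1 and -0.36 on array 2. PBS2 and SNF1 kept 1 sign on both arrays, whereas HOG1 did not. Of all genes, 7.85% were above 0 on both arrays, as PBS2 was, and 31.9% below 0 on both, as SNF1 was. The mean of PBS2 lay at percentile 92.1 and that of SNF1 at 35.7. On array 2 SNF1 lay at percentile 49.4, and relative to that array's median it was -0.0097. The Hog1-dependent transcription factors SKO1 and HOT1 had no ratio. SMP1, a further transcription factor of this list, had -0.50 on array 1 and 0.02 on array 2, with opposite signs and a mean of -0.24.

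**Figure D4:**
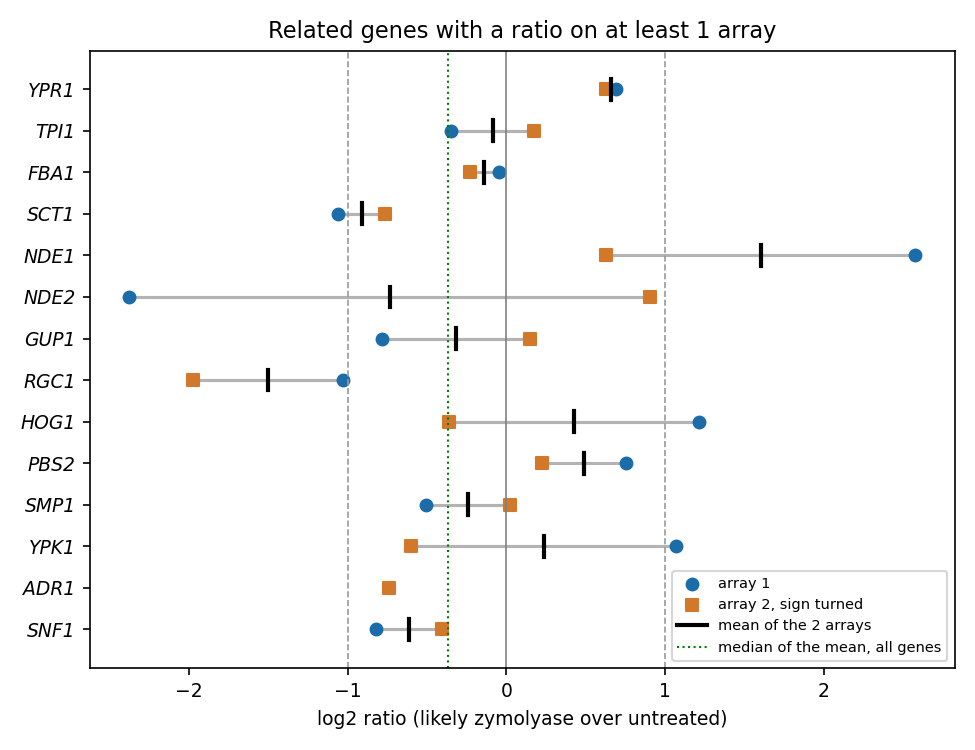
Log2 ratio (x axis, likely zymolyase over untreated) of the related genes with a ratio on at least 1 array (y axis), with array 1 as circles, array 2 with its sign turned as squares and the mean as black bars. Dashed lines mark 2-fold and the dotted line the all-gene median of -0.37. NDE1 lies on the positive side on both arrays and RGC1 beyond 2-fold negative on both, while NDE2, HOG1 and YPK1, among others, have opposite signs.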

How the data were processed

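Two-colour array ratios were deposited by the authors as 1 log2 value per gene and array. Per the labels' protocols, total RNA was labelled with Cy5-dUTP or Cy3-dUTP by reverse transcription. Scanner, background correction, normalization, filter, centring, direction and probe build are not given in the sources used here. The log base was taken from the values: all 387 values of array 1 below -2 were the log2 of whole multiples of 0.0001, within rounding to 4 decimals, and so were all 239 values of array 2 above 2 after their sign was turned. Array 2 was thus inverted at some step before deposit, which may itself have been a turn made by the submitters, so this does not settle its sign. The design text gives 1 culture, whereas each sample's text speaks of several; the design text was followed, and the arrays count as 1 replicate.

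From the table, 2 control rows were left out, array 2 was multiplied by -1, and the mean and SD were taken per gene. The deposited values were not recentred. Of the 6207 names, 5654 were found by locus tag in a table of RefSeq genes (assembly R64), the source of symbols and gene lengths. No coordinates or sequences are printed. The length trend was a lowess curve of the ratio on log10 gene length per array (fraction 0.3, 3 iterations). Python 3.11.15, pandas 2.3.3 and statsmodels 0.14.6 were used.

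The glycerol genes, the lists of related genes and the turn of array 2 were chosen with earlier results of these data known. Named were all 10 glycerol genes, the 5 genes nearest to GPD1, and both members of 4 paralog pairs. Of each related list, every gene past the rule was named, or otherwise the 2 with the largest absolute means. Apart from these, NDE2, TPI1, FBA1, SCT1, GUP1, HOG1, SKO1, HOT1, SMP1 and YPK1 were named after their values were seen.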

Additional observations from a re-analysis of the deposited data

How the results depend on the processing

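All alternatives were planned with earlier results known, and SDs cover hybridisation error only. The means of GPD1, GPD2, GPP1, GPP2 and GUT1 kept their signs after centring each array, after centring with rescaling and after removal of the length trend. Either array alone kept them too. After removal of the length trend GUT1 nonetheless had opposite signs on the arrays (-3.88 and 0.37). In the first 3 of these settings GPP2 had 1.27, 1.33 and 1.35 (past 2-fold). GUT2, negative without recentring, had 0.13, 0.11 and 0.11 there, in the last with opposite signs on the arrays (-0.20 and 0.43). The glycerol genes past 2-fold were then 2 positive throughout and 2, 2 and 1 negative (1 and 2 without recentring), the related genes 2 positive and 1 negative throughout (1 and 1), and all genes 122 and 161, 118 and 163, and 120 and 155 (65 and 307), so that the positive share rose. The all-gene counts after removal of the length trend were over 2174 genes, the others so far over 2254. At 1.5-fold the positive and negative counts were 2 and 2 for glycerol genes, 2 and 3 for related genes and 109 and 515 for all genes. With 2-fold on each array they were 1 and 0, 0 and 1, and 38 and 104. With array 2 as deposited GPD1 had 0.41, GPD2 0.75 (sign changed), GPP1 -0.44, GPP2 -0.072 and GUT2 0.12, and the counts were 0 and 0, 0 and 1, and 277 and 309. The glycerol genes could not pass there, since their deposited signs oppose. With every sign turned the values reverse by construction: GPD1 -3.00, GPD2 1.74, GPP1 -0.45, GPP2 -0.88, GUT1 2.15, GUT2 0.26 and their median -0.094, with counts of 2 and 1, 1 and 1, and 307 and 65. From 1 array alone (array 2, then array 1) the median of the 6 genes was 0.25 and -0.066, so its sign near 0 is unsettled. Glycerol genes past 2-fold were 1 positive and 1 negative on either array, with GPD2 as the negative one on array 2 and GUT1 on array 1. Related genes numbered 3 positive and 3 negative on array 1, and 0 and 1 on array 2. Of all 2428 genes valued on array 1, 297 were positive and 859 negative. Of all 2918 on array 2, 271 were positive and 757 negative. Apart from the construction of the settings with turned signs and the fewer arrays, the cause of these changes was not tested.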
